A study of Mus musculus with 22 samples.

Results

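Wild-type mouse back skin was compared between postnatal day 23 (P23) and postnatal day 6 (P6). The comparison rests on 8 of the 22 arrays of the study, chosen by their titles: the 3 wild-type arrays of P23 and the 5 wild-type arrays of P6. The series' design text places P6 and P14 in the initial formation of the hair follicles and P23 in the first telogen, the resting phase. All mice were of the CB6F1 strain, a hybrid of 2 inbred strains. The wild-type mice carried no transgene and were littermates of K14-DN-Clim mice, in which the keratin 14 promoter directs a dominant-negative CLIM protein to basal keratinocytes. The 3 wild-type arrays of P14 are used here to place the level between both ages, and the 8 DN-CLIM arrays of P6 (5) and P23 (3) for the same age comparison in other mice. RNA came from whole back skin, so each value sums epidermis, hair follicles, dermis, fat, the thin muscle sheet under the skin and blood.

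Skin of a neonatal mouse builds its coat. Matrix cells at the base of each follicle divide and turn into the hair shaft and the inner root sheath around it, melanocytes fill the shaft with pigment, and the dermis and its muscle still grow. In telogen the lower follicle has regressed, no shaft is made, and the stem cells of the bulge, the permanent upper part of the follicle, are at rest. The comparison of P23 with P6 therefore asks what has changed in net terms between growing neonatal skin and skin at its first rest, and P14 shows whether a gene took a detour on the way.

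Each value below is the log2 of the signal that the authors' MAS5 software gave for a probe set, and a change is a difference of mean log2 signals, P23 minus P6, with its standard error (SE). A gene is represented by its probe set with the highest mean signal over the 22 arrays. A gene was called where limma's adjusted p (Benjamini-Hochberg over all 12422 probe sets) was under 0.05, and only called genes are said to have risen or fallen. Levels of different genes cannot be set against each other on these arrays. In whole skin, fewer cells of a type and less RNA per cell cannot be told apart. The design text speaks of separate mice, but no label links an array with its mouse, so p-values measure the spread between these arrays. The transcript Xist of the inactive X chromosome and the Y-linked Eif2s3y were both above log2 6 on wild-type P6 arrays 1 to 4, and the fifth showed Xist only. Of the P23 arrays, the first showed Xist only and the second and the third Eif2s3y only. The sources used here do not say whether RNA of several mice was pooled at P6.

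The arrays carried the markers of skin. The mean log2 level of 6 hair shaft keratin markers lay between 13.41 and 14.15 on the P6 arrays and between 7.03 and 7.55 at P23, and that of 6 fibroblast markers between 12.90 and 13.11 and between 13.35 and 13.41. Of 7 keratinocyte markers, the probe sets of Krt5, Krt14 and Krt15 were dim at both ages, so the basal layer is read here from other genes. The 8 skeletal muscle markers lay between 10.11 and 10.34 at P6 and between 12.43 and 12.70 at P23, and all 8 were called higher. Markers of tissues outside the skin stayed low: 3 of liver lay between 5.63 and 6.37 at P6 and between 5.63 and 6.09 at P23, and 4 of brain between 4.15 and 5.53 and between 4.45 and 4.83, with 0 of these 7 called. The 4 cartilage markers lay between 6.47 and 7.20 and between 5.85 and 6.33, and Acan was called lower (-0.81 (limma adjusted p = 0.009)).

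Of the 12422 probe sets, 2222 were called higher (17.9%) and 2102 lower (16.9%) at P23 than at P6, which is 34.8% together, and the median change over all probe sets was -0.02. Taken by gene, 1629 of 8251 rose (19.7%) and 1608 fell (19.5%), 39.2% together. A change of at least 1 log2 unit was reached by 748 of the genes that rose (9.07% of all genes) and by 579 of those that fell (7.02%). With so many genes called, the count of a gene list is read against these shares. The P23 arrays did not overlap the P6 arrays at 37.7% of the probe sets. The falls reached further than the rises: the largest fall among the 4900 brighter genes (mean log2 signal of at least 7.67, the median of all probe sets) was that of Krtap19-5, at -10.23, and the largest rise that of Myh4, at 5.63. The order of the falls rests on dim P23 signals: with 50 added to each signal Krtap19-5 was at -6.73, behind Krt25 at -8.20 and Krtap9-1 at -7.66.

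**Figure D1:**
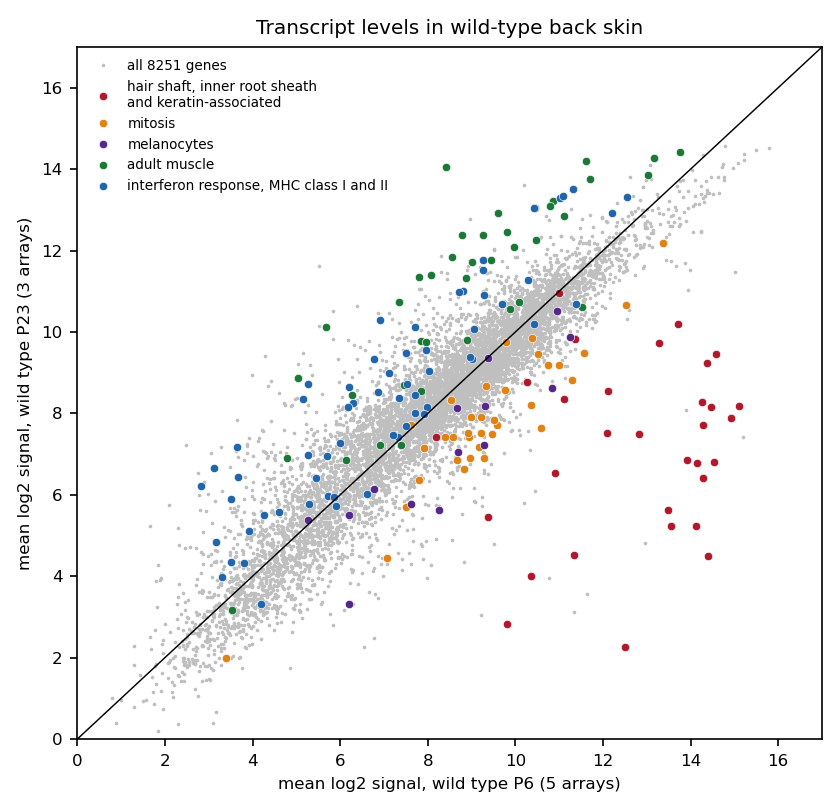
Mean log2 signal of 8251 genes in wild-type back skin at P6 (x axis, 5 arrays) and P23 (y axis, 3 arrays), 1 point per gene, with the line of equal levels and members of 5 kinds of gene list in colour. Most hair shaft, inner root sheath and keratin-associated genes lie below the line, with medians of -5.24, -5.29 and -6.98, and most adult muscle genes lie above it, with a median of 2.13.

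The hair shaft and its sheath were behind the largest falls. The shaft is a bundle of hair keratins set in a matrix of keratin-associated proteins, and the inner root sheath is moulded around it by keratins of its own. All 10 hair shaft keratins on the array fell (median log2 change -5.24), as did all 11 keratin-associated proteins (median log2 change -6.98) and 9 of 10 inner root sheath genes (median log2 change -5.29), against 19.5% of all genes. The median over all genes was -0.02.

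Krt31, an acidic hair keratin of the shaft cortex, read 14.06, 14.10, 13.68, 14.43 and 14.52 at P6 and 7.19, 6.42 and 6.71 at P23. All 3 P23 arrays lay far below the lowest P6 array, and the gene fell by 7.38 (SE 0.20, limma adjusted p = 5.7e-18). Krt25, a keratin of the inner root sheath, read 14.31, 14.18, 14.08, 14.70 and 14.75 at P6 and 5.00, 3.51 and 4.96 at P23. The gene fell by 9.91 (SE 0.24, limma adjusted p = 8.0e-19). Krtap19-5, a glycine- and tyrosine-rich protein of the shaft matrix, read 12.48, 12.51, 12.15, 12.70 and 12.66 at P6 and 2.04, 2.28 and 2.49 at P23, where its P23 signals are near the low end of the scale. All 3 genes come from the 15 largest falls, which were drawn only from genes whose ages do not overlap.

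The size of such folds rests on how low the P23 signal went, and no detection calls were used here. The fall of Krtap19-5 is 1200-fold on the deposited scale and 106-fold after 50 is added to each signal. For Krt25 the values are 964-fold and 293-fold, and for Krt31 167-fold and 114-fold. All 3 stay called with 50 added. Some of these families have near-identical members, and a probe set may read more than the gene it is named for.

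Within the shaft keratins the falls ran from -8.31 (Krt83) to -0.77 (log2). Basic hair keratins such as Krt86 (-5.14) and Krt81 (-5.12) and acidic ones such as Krt35 (-5.34), Krt34 (-7.85) and Krt33b (-6.33) fell together. Among the keratin-associated proteins, Krtap9-1 (-8.89), Krtap6-2 (-7.85), Krtap8-1 (-7.74), Krtap14 (-7.07) and Krtap3-1 (-6.93) fell. In the inner root sheath the type II keratins Krt71 (-7.02) and Krt72 (-4.58) and the type I keratin Krt27 (-6.59) fell beside S100a3 (-6.00), a calcium-binding protein of the hair cuticle that stands in this list. The member that was not called was Gata3, a transcription factor of the sheath that is also made elsewhere in skin, at -0.04 (limma adjusted p = 0.8). Crym (-8.21), a thyroid hormone-binding protein, and Fbp1 (-8.05), an enzyme of gluconeogenesis, were the only genes outside keratin and keratin-like families among the 15 largest falls of the brighter genes, if the unnamed models Gm10228 (-8.12) and Gm10229 (-7.78) are set aside.

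The regulators of the hair matrix fell with its products. Of 22 members on the array 13 fell and 1 rose (median log2 change -0.65). Msx2, a homeobox factor of the matrix and of shaft differentiation, read 10.56, 10.67, 10.91, 11.11 and 10.57 at P6 and 3.71, 3.98 and 4.20 at P23. It fell by 6.80 (SE 0.18, limma adjusted p = 2.8e-18), with no overlap between the ages. Foxn1, the nude gene, which drives shaft keratins, was -3.51, and Dlx2, a homeobox gene of the matrix, -3.29. Shh, the hedgehog ligand of the growing bulb, was -2.88. Lef1, the transcription factor through which Wnt signals reach hair keratin genes, fell by 1.72 (SE 0.12, limma adjusted p = 9.0e-11), with 11.25 ± 0.14 (SD, n = 5) at P6 and 9.53 ± 0.10 (SD, n = 3) at P23. Notch1, the receptor that keeps matrix cells on the shaft and sheath path, fell by 1.36 (SE 0.11, limma adjusted p = 2.6e-09). The member that rose was Tcf4, at 0.74, an E-protein made in many cell types.

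Pigment genes fell as well. Melanocytes of the bulb make melanin only while the hair grows, and 10 of 14 melanocyte genes fell and 0 rose (median log2 change -1.24). Pmel, the scaffold protein on which melanin is laid down, read 10.84, 11.32, 11.07, 10.64 and 10.34 at P6 and 8.73, 8.50 and 8.66 at P23. The ages did not overlap, and Pmel fell by 2.21 (SE 0.19, limma adjusted p = 3.5e-09). Among the enzymes and receptors of the pathway, tyrosinase (Tyr) was -1.83, dopachrome tautomerase (Dct) -1.37, Tyrp1 -1.12, and the melanocortin receptor gene Mc1r -1.64, all called. The ion channel gene Trpm1 (-2.06) and Oca2 (-2.62), which sets the pH of the pigment granule, also fell. Mitf, the lineage's own transcription factor, was among the 4 not called, at -0.62 (limma adjusted p = 0.34).

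The promoters of these pigment genes are shown because MITF, the master regulator of melanocytes, binds an E-box with the letters CATGTG. Windows of 300 bases around gene starts (250 before to 50 after, RefSeq, GRCm38.p6) were searched on both strands. Of 10 windows found for 8 of the 10 genes that fell, 7 hold CATGTG (70%), against 14.2% of all 32851 windows. The 150 bases before the start are printed 5′ to 3′ for 3 of them, with CATGTG or its reverse complement CACATG in capitals. Tyr lies at chr7:87493513-87493662 on the minus strand, Mc1r at chr8:123406932-123407081 (plus) and the upstream start of Trpm1 at chr7:64153685-64153834 (plus).
Tyr: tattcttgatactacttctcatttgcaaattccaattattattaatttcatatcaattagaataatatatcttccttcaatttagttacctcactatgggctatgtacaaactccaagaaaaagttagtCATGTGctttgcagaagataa
Mc1r: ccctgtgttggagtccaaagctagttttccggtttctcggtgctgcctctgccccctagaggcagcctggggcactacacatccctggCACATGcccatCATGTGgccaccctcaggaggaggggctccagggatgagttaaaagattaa
Trpm1: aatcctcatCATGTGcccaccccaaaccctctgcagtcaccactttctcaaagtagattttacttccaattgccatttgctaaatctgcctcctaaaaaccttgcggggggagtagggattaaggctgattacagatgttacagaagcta
The match begins 21 bases before the start in Tyr and 141 in Trpm1, and Mc1r has a pair, at 62 and 51. A match is a description of the letters and not of binding.

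Genes of cell division fell, and no member of both lists rose. Hair matrix and neonatal epidermis are among the fastest dividing tissues of the mouse. Of 35 mitosis genes 31 fell and 0 rose (median log2 change -1.55), and of 32 DNA replication genes 19 fell and 0 rose (median log2 change -0.67), where 19.5% of all genes fell. Cdc20, which activates the anaphase-promoting complex, read 11.34, 10.97, 11.19, 11.47 and 11.47 at P6 and 8.69, 8.99 and 8.81 at P23. Every P23 array lay below every P6 array, and Cdc20 fell by 2.46 (SE 0.13, limma adjusted p = 1.9e-12). Mki67, the proliferation antigen Ki-67, read 10.50, 10.92, 10, 10.82 and 10.67 at P6 and 7.59, 7.47 and 7.89 at P23, and fell by 2.94 (SE 0.20, limma adjusted p = 7.4e-11). The cyclin Ccnb2 (-2.09), its kinase Cdk1 (-2.15), the survivin gene Birc5 (-2.38) and the kinase subunit Cks2 (-1.86) fell by amounts of the same order. The other 4 mitosis genes were not called.

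Replication genes copy the genome before mitosis. Tk1, the thymidine kinase of S phase, was -1.77, the helicase subunits Mcm7 and Mcm5 were -1.55 and -1.52, and the DNA ligase Lig1 was -1.24. The mean level of the mitosis list lay between 9.25 to 9.47 on the P6 arrays, 8.64 to 8.83 at P14 and 7.66 to 7.94 at P23, so P14 stood between both ages, with a median change of -0.53 from P6 to P14 and -0.96 from P14 to P23. The cyclin D1 gene Ccnd1 (-1.14) and Mycn (-3.27), growth regulators upstream of the cycle, fell too.

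Promoters of mitosis genes share a known pair of elements, the cell cycle homology region (TTTGAA or TTCGAA), through which they are held off in resting cells, and CCAAT boxes, bound by NF-Y. Windows were found for 24 of the 31 mitosis genes that fell. Of these 25 windows 19 hold the cell cycle homology letters (76%, against 19.2% of all windows) and 21 hold CCAAT (84%, against 37.4%). Cdc20 (chr4:118437344-118437493, minus strand) and Cdk1 (chr10:69352913-69353062, minus strand) are printed over the 150 bases before the start, with the matches on either strand in capitals.
Cdc20: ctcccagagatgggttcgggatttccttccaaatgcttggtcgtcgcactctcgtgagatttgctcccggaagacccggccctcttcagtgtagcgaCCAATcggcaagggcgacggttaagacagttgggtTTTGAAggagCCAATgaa
Cdk1: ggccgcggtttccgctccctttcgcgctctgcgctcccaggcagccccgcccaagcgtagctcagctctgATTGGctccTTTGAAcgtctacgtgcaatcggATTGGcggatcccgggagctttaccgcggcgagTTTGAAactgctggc
In Cdc20 the TTTGAA begins 18 bases before the start and lies between CCAAT boxes at 53 and 8. In Cdk1 a TTTGAA stands at 71 and another at 15, with the reverse complement ATTGG at 80 and 48. The motifs were chosen with the lists' changes known, and 11 in all were searched. The others were the MEF2 site (CTA and TAG with any 4 bases between) in adult muscle genes (10.8% of 37 windows, 3.69% of all), CACGTG (25% of 16 windows, 7.15%) and TTANGTAA (0% and 2.32%) in clock genes, CTTTGA in shaft keratins (66.7% of 6 windows, 16%), TATAAA in keratin-associated proteins (88.9% of 9 windows, 13.6%), TTTGGCGC in replication genes (13% of 23 windows, 0.514%) and TTCNNNGAA in interferon genes (25% of 28 windows, 8.3%). The letters CTTTGA and TTTGAA overlap where a C precedes TTTGAA.

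**Figure D2:**
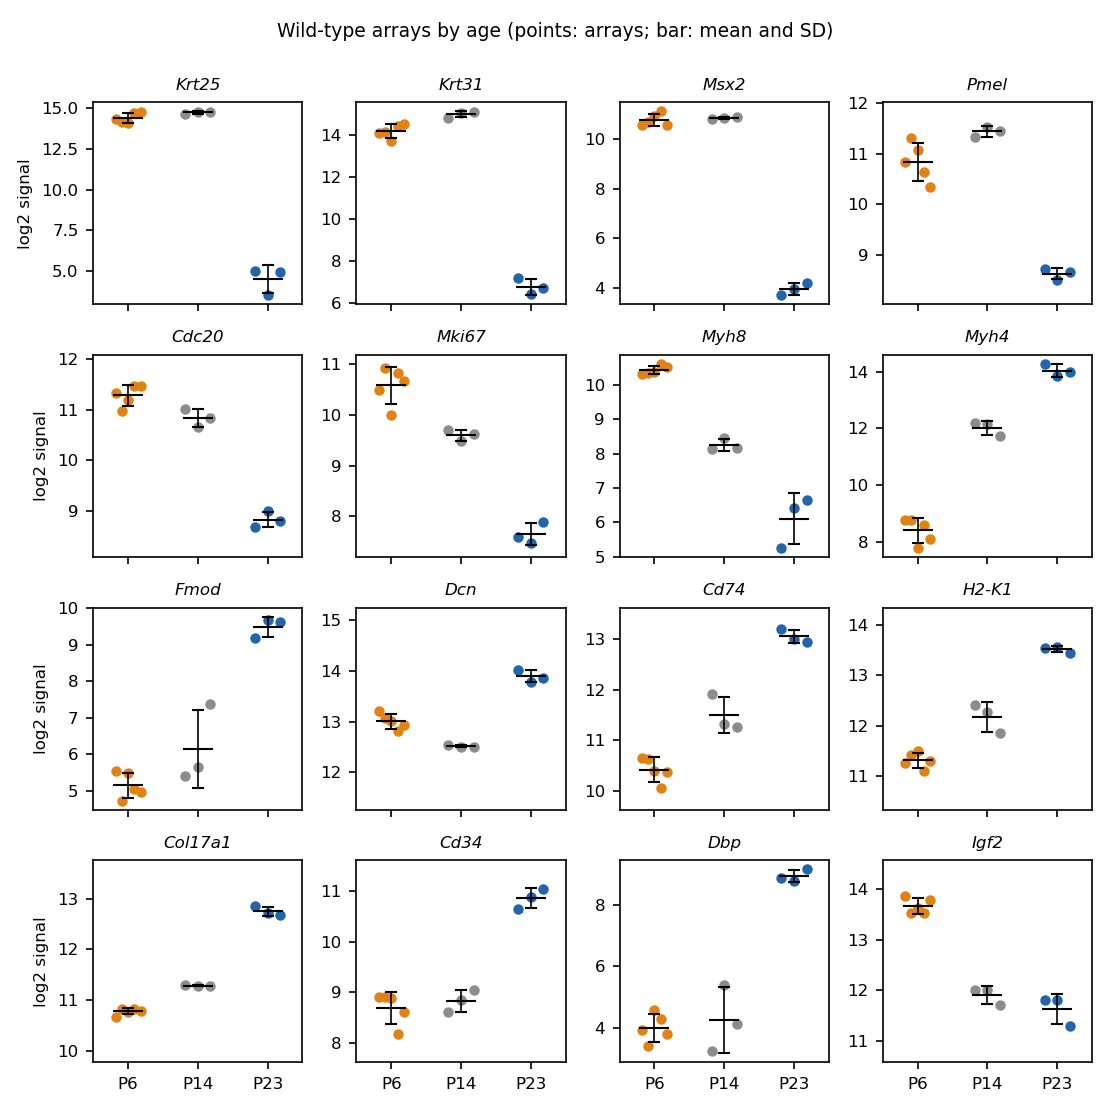
Log2 signal of 16 genes (y axis) on each wild-type array at P6, P14 and P23 (x axis); points are arrays, bars the mean and SD, and each panel has its own scale. Krt25 and Msx2 are about as high at P14 as at P6, Krt31 is higher by 0.81 at P14, and all of them are low at P23. Cdc20 and Mki67 step down at each age, and Myh8 falls while Myh4 rises.

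The epidermis between the follicles changed its keratins. The cornified layer of a neonate is thick, and its proteins are made by cells leaving the basal layer. Of 21 epidermal differentiation genes 13 fell and 4 rose (median log2 change -0.68, and -0.28 after quantile normalization of the arrays). Flg, whose product filaggrin bundles keratin filaments, read 13.95, 13.48, 13.76, 14.13 and 14.40 at P6 and 11.01, 11.14 and 10.94 at P23, and fell by 2.92 (SE 0.17, limma adjusted p = 6.6e-12). The suprabasal keratin gene Krt1 fell by 1.77 (SE 0.16, limma adjusted p = 1.0e-08), and its partner Krt10 fell by 0.68 (SE 0.21, limma adjusted p = 0.016), but Krt10 was at 0.09 after quantile normalization. Involucrin (Ivl, -2.24), Casp14 (-1.42), the protease of filaggrin, loricrin (Lor, -0.99) and the hair and skin transglutaminase Tgm3 (-2.75) fell as well.

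The exception in size was Krt77, a type II keratin of the suprabasal layer, which read 10.09, 10.18, 10, 10.20 and 10.48 at P6 and 13.61, 13.64 and 13.58 at P23. It rose by 3.42 (SE 0.15, limma adjusted p = 2.7e-14). The other members that rose were Rptn (0.88), Klf4 (0.57) and Aloxe3 (0.49), and their P6 and P23 arrays overlap for Rptn and Aloxe3. In the stress response list, which holds the keratins and small proline-rich proteins of wounded skin that are also made by follicles, 9 of 20 fell and 1 rose (median log2 change -0.41). Sprr1a was -3.52, Sprr2h -3.22, Krt17 -1.82 and Krt16 -1.26, while Sprr2b rose (0.81). Another probe set of Krt17 was called in the opposite direction, at 1.14. Without the third P23 array 5 members of the list were called lower.

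The basal layer and its anchor to the dermis changed in both directions. Of 16 genes 6 rose and 4 fell. Col17a1, the transmembrane collagen of the hemidesmosome, which is also a bulge stem cell marker, read 10.67, 10.83, 10.76, 10.82 and 10.79 at P6 and 12.86, 12.72 and 12.69 at P23. It rose by 1.98 (SE 0.09, limma adjusted p = 1.8e-13), and its integrin partners Itga6 (1.38) and Itgb4 (0.72) rose with it. Lama5, the laminin of the growing follicle's basement membrane, fell by 1.48 (SE 0.11, limma adjusted p = 3.8e-10). Bnc1 (-1.27), the zinc finger protein basonuclin, Cdh3 (-1.22), the P-cadherin of the matrix, and Itga3 (-0.65) also fell.

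Markers of the bulge rose more often than they fell. Of 24 on the array 10 rose and 4 fell (median log2 change 0.39). Cd34, the surface marker by which bulge cells of mice are sorted, read 8.90, 8.90, 8.89, 8.17 and 8.60 at P6 and 10.64, 10.89 and 11.04 at P23, and rose by 2.17 (SE 0.20, limma adjusted p = 1.6e-08). Cd34 is also made by dermal fibroblasts and vessels. The matricellular growth factor Ccn2 rose by 2.75 (SE 0.18, limma adjusted p = 3.3e-11), and Nfatc1 (0.57), which keeps bulge cells quiet, and the growth arrest gene Gas1 (0.86) rose by less. Pdlim3 (3.40) stands in this list and in that of muscle, whose markers were higher on every P23 array, and the part of muscle in its rise was not tested. The members that fell were Lgr5 (-2.02), a marker of cycling follicle stem cells, Fzd2 (-1.31), Tcf7l2 (-0.74) and S100a6 (-0.51), which was at 0.18 after quantile normalization. The Lgr5 arrays of both ages overlap. Ldb1, the gene of a CLIM cofactor, fell by 0.77 (SE 0.13, limma adjusted p = 5.8e-05).

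Ligands and receptors of the Wnt pathway fell on balance. Wnt signals drive the growing bulb, and secreted inhibitors damp them at rest. Of 36 members 13 fell and 3 rose (median log2 change -0.40). Among the ligands Wnt11 (-4.49), Wnt5a (-1.98) and Wnt4 (-1.23) fell. The mean level of Wnt11 was 8.83 ± 0.18 (SD, n = 5) at P6 and 4.34 ± 0.50 (SD, n = 3) at P23, and with 50 added its change is -2.83. Among the receptors Fzd2 fell by 1.31 (SE 0.13, limma adjusted p = 5.7e-08). The 3 genes that rose were Frzb (2.12, or 0.91 with 50 added), Sfrp4 (2.04) and Sfrp2 (0.77), all of them secreted Wnt antagonists of the frizzled-related kind.

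In the TGF-beta, activin and BMP list 9 of 42 genes fell and 3 rose, against 19.5% and 19.7% of all genes. The inhibitory Smad6 fell by 1.88 (SE 0.18, limma adjusted p = 1.7e-08), and Id3 (-0.93), a direct target of BMP signals, and Smad2 (-0.68) fell by less. Tgfbi, a matrix protein named for its induction by TGF-beta, read 8.96, 9.04, 9, 8.77 and 8.67 at P6 and 11.46, 11.44 and 11.67 at P23, and rose by 2.64 (SE 0.13, limma adjusted p = 2.1e-13). The others that rose were the ligand gene Tgfb2 (1.83) and the latent binding protein Ltbp1 (3.37). Of 18 dermal papilla genes 5 fell, with Corin (-2.49), the protease that marks the papilla, Alpl (-1.41), Igf1 (-0.55), Wnt5a and Lef1, and 2 rose, Sfrp2 and Igfbp3 (3.02), the IGF-binding protein. Another probe set of Igf1 was called higher, at 1.73. The share called in the papilla list, 38.9%, is near the 39.2% of all genes.

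Most adult muscle genes rose, and the perinatal and embryonic myosins fell. The panniculus carnosus, a thin striated muscle, lies under mouse back skin, and growing fibres replace embryonic and perinatal myosin by fast adult myosins. Of 39 adult muscle genes 34 rose and 1 fell (median log2 change 2.13), against 19.7% of all genes that rose. From P6 to P14, 7 of them were called higher and 1 lower (median log2 change 0.12). From P14 to P23, 33 were called higher and 1 lower (median log2 change 1.91). Myh4, the fast IIb myosin, read 8.78, 8.77, 7.78, 8.60 and 8.10 on the P6 arrays, 12.19, 12.14 and 11.72 on those of P14 and 14.27, 13.85 and 14.00 on those of P23. It rose by 5.63 (SE 0.36, limma adjusted p = 3.3e-11) and P14 lay between both ages. Myh8, the perinatal myosin, read 10.33, 10.36, 10.39, 10.61 and 10.51 on the P6 arrays, 8.14, 8.45 and 8.18 on those of P14 and 5.26, 6.41 and 6.65 on those of P23, the opposite course. It fell by 4.33 (SE 0.21, limma adjusted p = 2.2e-13). Myh3, the embryonic myosin, was -4.27, and with 50 added to each signal its change is -1.32. Its level was dim, with a mean of 6.54 ± 0.39 (SD, n = 5) at P6.

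Not every muscle gene followed the fast fibre. Myh1, the IIx myosin, rose by 3.31 (SE 0.10, limma adjusted p = 1.3e-17), and Myh2, the IIa myosin, was dim and at -0.35 (limma adjusted p = 0.68). The calcium pump Atp2a1 (2.57), the release channel Ryr1 (3.34), Actn3 (3.12) of fast fibres, the troponin Tnnt3 (2.58), glycogen phosphorylase (Pygm, 3.60), Pgam2 (3.30) of glycolysis and the creatine kinases Ckm (2.45) and Ckmt2 (3.55) rose, as did myoglobin (Mb, 4.43). Actin of the sarcomere, Acta1, rose by 0.65 only. The member that fell was Tpm1 (-0.92), a tropomyosin that is also made outside muscle. Casq2 (-0.18), Sln (0.71), Actn2 (0.30) and Myh2 were not called.

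Of 20 developmental muscle genes 7 fell, 4 rose and 9 were not called (median log2 change 0.17). Beside both myosins, the myoblast cadherin Cdh15 (-2.41), the slow troponin Tnni1 (-1.15), the embryonic troponin Tnnt2 (-1), the light chain Myl4 (-0.57) and Igf2 (-2.04) fell. Csrp3 (2.20), the receptor subunit Chrnb1 (1.77), Myf6 (1.27) and cardiac actin Actc1 (0.69) rose. Pkia (3.60), an inhibitor of protein kinase A that muscle expresses strongly, was among the 15 largest rises.

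The dermal matrix was read from lists of collagens, proteoglycans, elastic fibres and proteases. Fibrillar collagen makes the bulk of the dermis, and small leucine-rich proteoglycans coat and space its fibrils. The main chains Col1a1 at -0.21 (limma adjusted p = 0.29), Col1a2 at 0.07 (limma adjusted p = 0.69) and Col3a1 at -0.04 (limma adjusted p = 0.86) were not called. After quantile normalization Col1a1 was at 0.87 and Col3a1 at 0.77 and both passed limma's threshold, so their direction rests on the scaling. Without it another probe set of Col3a1 was called higher, at 1.18, and another of Col1a2 lower, at -0.42. Further probe sets of Col3a1 (0.32) and Col1a1 (0.01) were not called. Of 29 genes of collagens and their assembly 10 rose and 4 fell (median log2 change 0.08, and 0.49 after quantile normalization). Serpinh1, the collagen chaperone, rose by 1.26 (SE 0.14, limma adjusted p = 3.9e-07), and P4ha2 (1.66), a prolyl hydroxylase, and Col5a1 (0.73) rose. The basement membrane chains Col4a1 (-0.53) and Col4a2 (-0.38), Col18a1 (-0.71) and Col11a1 (-1.26) fell.

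In the list of leucine-rich proteoglycans and adult dermal matrix 11 of 15 genes rose and 0 fell (median log2 change 1.31). Fmod, fibromodulin, which stands in the collagen list too, read 5.54, 4.74, 5.48, 5.05 and 4.97 at P6 and 9.18, 9.67 and 9.63 at P23. It rose by 4.34 (SE 0.47, limma adjusted p = 1.7e-07), and since it is dim at P6 its change with 50 added is 3.16. Decorin, Dcn, read 13.20, 13.07, 13.01, 12.81 and 12.94 on the P6 arrays, 12.54, 12.50 and 12.50 on those of P14 and 14.02, 13.79 and 13.87 on those of P23. It rose by 0.89 (SE 0.10, limma adjusted p = 1.4e-07) after a lower level at P14. Ogn (1.80), Lum (0.81), Sparcl1 (1.31) and Clec3b (2.21) rose too.

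Elastic fibres are cross-linked by lysyl oxidase, and metalloproteinases cut the matrix. Of 13 elastic fibre genes 7 rose, among them lysyl oxidase (Lox, 1.34), Mfap5 (0.71), Ltbp2 (1.03) and Ltbp1, which is dim at P6. The member that fell was Fbn2 (-1.21), the fibrillin of embryonic and neonatal tissue. Of 23 matricellular and protease genes 7 rose and 2 fell, a share of 39.1% that is near the 39.2% of all genes (median log2 change 0.04). Stromelysin 1, Mmp3, read 5.93, 6.10, 5.75, 6.02 and 5.35 at P6 and 10.51, 10.31 and 10.70 at P23, and rose by 4.68 (SE 0.26, limma adjusted p = 4.1e-12). Mmp9, the gelatinase, was 3.23, and 1.68 with 50 added. Tenascin C (Tnc, -1.50), a matrix protein of growing and healing tissue, and Ccn3 (-1.08) fell.

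Several genes of neonatal growth fell. Many imprinted genes promote growth before weaning and are shut down together in several organs afterwards. Igf2, insulin-like growth factor 2, read 13.86, 13.54, 13.62, 13.53 and 13.79 on the P6 arrays, 12.00, 12.01 and 11.71 on those of P14 and 11.80, 11.80 and 11.29 on those of P23. It fell by 2.04 (SE 0.11, limma adjusted p = 3.5e-12), and most of that fall had been reached by P14. Dlk1 (-2.01), which holds preadipocytes back, Mest (-2.22), Phlda2 (-1.37), Peg3 (-0.71) and Cdkn1c (-0.65) fell. Of 22 genes of the list 7 fell, 3 rose and 12 were not called, with the median at -0.05. The share called in the imprinted list was 45.5%, against 39.2% of all genes. The members that rose were Dcn, Ndn (0.52) and Ascl2 (1.46), whose arrays of both ages overlap. Another probe set of Peg3 was called higher, at 0.47. In the IGF axis Igfbp2 (-1.76) fell, and Igfbp3 (3.02) and Igfbp6 (2.36) rose. The count of falls in this list, 6 of 22, was 3 without the third P23 array, with P6 arrays 4 and 5 only and with the sex class as a covariate.

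The machinery of protein synthesis fell in part. Of 37 genes of ribosome assembly and translation 15 fell and 2 rose, with the nucleolar proteins Nop56 (-1.74), Ncl (-1.33) and Npm1 (-1.33) among the falls, and Eef1b2 (1.97) and Eif4ebp1 (0.40) as the rises. Of 30 ribosomal protein genes 19 fell and 0 rose (median log2 change -0.85), but after quantile normalization 12 fell and the median was -0.19. The 20 brightest probe sets held between 6.31% and 8.76% of the signal on the wild-type P6 arrays and between 4.3% and 5.04% at P23, and the part of this in the fall was not tested.

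Most genes of antigen presentation rose. Skin of neonates holds few mature immune cells, and dendritic cells, macrophages and T cells settle in during the first weeks. Of 20 genes of MHC class II presentation 13 rose and 0 fell (median log2 change 1.02). Cd74, the invariant chain, read 10.65, 10.63, 10.40, 10.05 and 10.38 on the P6 arrays, 11.91, 11.32 and 11.26 on those of P14 and 13.20, 13.01 and 12.94 on those of P23. It rose by 2.63 (SE 0.22, limma adjusted p = 2.9e-09), with P14 between both ages. The class II chains H2-Aa (2.52), H2-Ab1 (2.19) and H2-Ea (3.39) and the protease cathepsin S (Ctss, 2.27), which trims the invariant chain, rose with it. The P6 arrays of H2-Ea spread from 3.70 to 8.09.

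MHC class I and interferon response genes showed the same direction. Of 42 genes 27 rose and 1 fell (median log2 change 1.27). H2-K1, a classical class I heavy chain, read 11.27, 11.42, 11.49, 11.10 and 11.31 at P6 and 13.54, 13.55 and 13.44 at P23, and rose by 2.19 (SE 0.13, limma adjusted p = 9.7e-12). Its light chain B2m rose by 2.25 (SE 0.17, limma adjusted p = 5.8e-10), and the immunoproteasome subunit Psmb8 (2.40) and the peptide-loading chaperone Tapbp (1.63) rose as well. The member that fell, Psmb6 (-0.70), is the constitutive proteasome subunit that Psmb9 (3.46) replaces in the immunoproteasome. Interferon-inducible guanylate-binding proteins and GTPases such as Gbp2 (3.20), Irgm1 (3.54) and Igtp (1.29) rose from dim levels, and so did the chemokine Cxcl9 (3.40), which draws T cells. With 50 added these 4 were at 2.04, 1.59, 0.85 and 1.12.

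Interferon-stimulated genes carry a response element of repeated GAAA letters, and their promoters are shown for that reason. The element, GAAA and again GAAA with any pair of bases between, or its complement stands in 9 of 28 windows (32.1%), which were found for 22 of the 28 called genes, against 3.44% of all windows. The windows of B2m (chr2:122147537-122147686), Gbp2 (chr3:142620513-142620662) and Igtp (chr11:58199406-58199555), all on the plus strand of GRCm38.p6, are printed over 150 bases before the start with the match in capitals.
B2m: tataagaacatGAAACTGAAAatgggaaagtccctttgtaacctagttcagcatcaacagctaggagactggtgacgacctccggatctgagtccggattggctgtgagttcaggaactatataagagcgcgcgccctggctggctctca
Gbp2: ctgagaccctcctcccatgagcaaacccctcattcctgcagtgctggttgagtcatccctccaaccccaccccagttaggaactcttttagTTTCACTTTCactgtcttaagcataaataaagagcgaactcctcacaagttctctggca
Igtp: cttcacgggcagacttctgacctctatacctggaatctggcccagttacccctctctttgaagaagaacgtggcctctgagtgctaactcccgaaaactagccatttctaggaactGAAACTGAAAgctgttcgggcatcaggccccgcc
The match begins 139 bases before the start in B2m, 59 in Gbp2, where the complement is read, and 34 in Igtp, and B2m and Igtp carry the same 10 letters.

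Markers of macrophages and T cells moved with these genes. All 6 macrophage markers were called higher, and their mean level lay between 8.26 and 8.67 on the P6 arrays and between 9.97 and 10.12 at P23. The 3 T cell markers on the array, Cd3e, Cd3g and Thy1, rose as well, and their mean level went from between 6.04 and 7.27 to between 8.33 and 8.67. Cd3e and Cd3g were dim at P6, with means of 5.48 and 4.10. Their changes were 1.87 and 2.62, and with 50 added 1.18 and 1.16. Thy1 was at 10.46, so it sets much of that level, and its P14 mean of 9.78 lay below both ages. The part of macrophages and T cells in the rise of MHC and interferon genes was not tested. Of 43 macrophage and complement genes 28 rose and 4 fell (median log2 change 1.02). Lysozyme, Lyz2, read 7.88, 7.67, 8.50, 7.37 and 7.60 at P6 and 11.03, 11.13 and 10.97 at P23, and rose by 3.24 (SE 0.20, limma adjusted p = 2.1e-11). The complement subunit C1qa (1.74), the chemokine Ccl8 (3.33), the receptor gene Csf1r (1.02) and the pan-leukocyte gene Ptprc (3.18, or 1.61 with 50 added), which encodes CD45, rose. The members that fell were Ctsb (-0.74), Apoe (-0.61), Ctsc (-0.49) and Lgals3 (-0.35), which other skin cells make too. Apoe was at 0.19 after quantile normalization.

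Lymphocyte genes are dim in whole skin. Of 26 of them 9 rose and 0 fell (median log2 change 0.73, with 5 of the genes among the brighter ones), with Cd3e, a chain of the T cell receptor complex, at 1.87, and Itgae (3.20, or 1.30 with 50 added), the integrin of T cells resident in epithelia. Of 15 neutrophil genes 1 rose and 1 fell, Mmp9 and S100a8 (-0.75). Of 16 mast cell genes 9 were not called, and the share called, 43.8%, is near the 39.2% of all genes. Cpa3 (0.90), Mcpt4 (2.62, or 1.16 with 50 added), Srgn (1.68) and Gata2 (0.82) rose, and Mcpt1 (-1.87), Kit (-0.54) and Tpsb2 (-0.46) fell. Kit is also a gene of melanocytes, and their part in its fall was not tested.

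**Figure D3:**
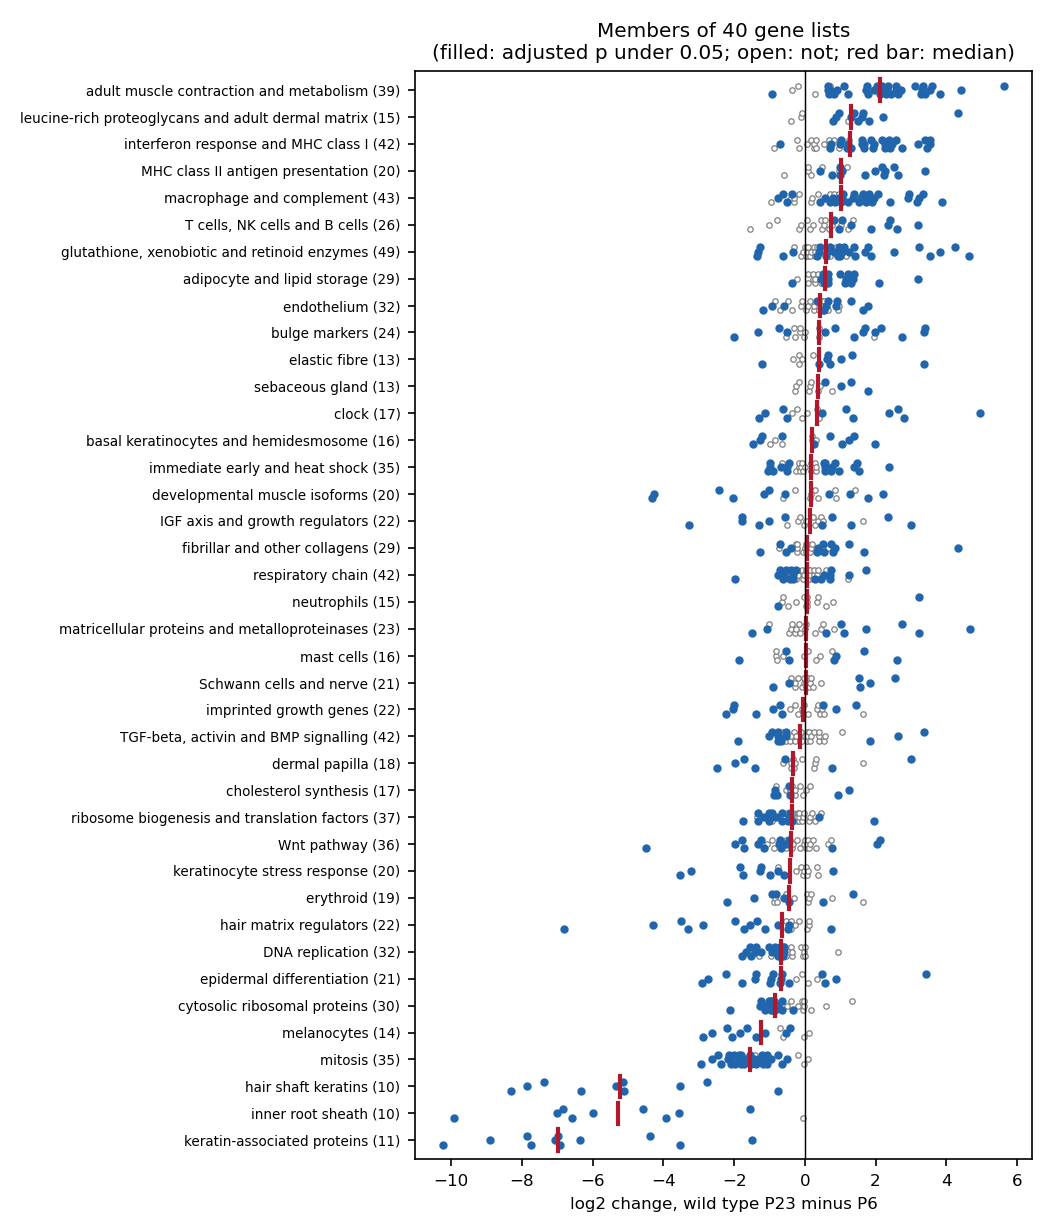
Log2 change P23 minus P6 (x axis) of every member of 40 gene lists (y axis, with the number of genes on the array), ordered by median; filled points passed limma's threshold, open ones did not, and red bars mark medians. The lists run from a median of -6.98 for keratin-associated proteins to 2.13 for adult muscle.

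Most fat cell genes rose. Fat under the skin fills adipocytes during suckling and weaning. Of 29 adipocyte genes 18 rose and 1 fell (median log2 change 0.57). Thrsp, a regulator of fatty acid synthesis, read 7.71, 7.82, 8.50, 7.26 and 7.99 at P6 and 10.70, 11.91 and 10.53 at P23, and rose by 3.19 (SE 0.30, limma adjusted p = 1.9e-08). Fatty acid synthase (Fasn, 1.31), malic enzyme (Me1, 1.38) and the insulin-regulated glucose transporter Slc2a4 (2.09), which muscle also uses, rose. Adiponectin (Adipoq) rose by 0.60. Cebpb, an early adipogenic factor, was the member that fell (-0.35). The rise was not steady. From P6 to P14, 13 of the 29 were called lower and 1 higher (median log2 change -0.51). From P14 to P23, 23 were called higher and 1 lower (median log2 change 1.33). Of 13 sebaceous genes 4 rose: Mgst1 (1.79), Fasn, the desaturase Scd1 (1.03) and Cidea (0.57). The share called among them, 30.8%, is below the 39.2% of all genes. Of 17 cholesterol synthesis genes 5 fell, among them Sqle (-0.88) and Mvd (-0.85), and 2 rose, Msmo1 (0.95) and Sc5d (1.26). The share called there, 41.2%, is near that of all genes.

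Enzymes that handle foreign compounds, peroxides and retinoids rose more often than they fell. Of 49 genes 25 rose and 5 fell (median log2 change 0.60). Aldh1a1, which makes retinoic acid, read 6.22, 6.56, 6.26, 6.36 and 6.49 at P6 and 10.72, 10.29 and 10.88 at P23. It rose by 4.25 (SE 0.23, limma adjusted p = 1.8e-12). Aldh1a1 is among the largest rises, which were drawn only from genes whose ages do not overlap. Another probe set of Aldh1a1 was not called, at -0.71 (limma adjusted p = 0.099). Gpx3, the secreted glutathione peroxidase, rose by 3.83 (SE 0.24, limma adjusted p = 2.8e-11), and the cytochrome gene Cyp2e1 rose by 3.55 (SE 0.20, limma adjusted p = 5.1e-12). The members that fell were the subunits of glutathione synthesis Gclc (-1.35) and Gclm (-0.62), Mgst3 (-1.33), Aldh3a2 (-0.33) and Aldh1a3 (-1.26), another retinoic acid enzyme, which acts in the hair follicle.

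Vessels, nerves and blood were read from lists of their own. Of 32 endothelial genes 10 rose and 3 fell, and 5 or 6 rose under 8 of the alternatives, among them 5 without the first or without the third P23 array. Vwf, the clotting factor of vessel walls, was 1.31, and Edn1 (-1.19), Aplnr (-0.91) and Apln (-0.57) fell. None of the 6 defining endothelial markers was called by its representative probe set, but another probe set of Tie1 was called higher, at 0.85. The share called in the endothelial list, 40.6%, is near the 39.2% of all genes. In the list of Schwann cells and nerve, 4 of 21 genes rose: the myelin genes Mbp (2.54), Pmp22 (1.85) and Mal (1.57), and Cryab (1.53), which muscle also makes. Tubb3 (-0.91) and Egr2 (-0.44) fell. The share called in this list, 28.6%, is below that of all genes, and the median log2 change was 0.03. The Schwann cell marker Sox10 was at -0.02 (limma adjusted p = 0.93). Of 19 red cell genes 6 fell, among them Alas2 (-0.92) and Slc4a1 (-0.83), which are used while red cells are made. Car1 (1.35) and Tspo2 (0.50) rose, and the share called, 42.1%, is near that of all genes.

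Of 17 clock genes 7 rose and 4 fell (median log2 change 0.34). The PAR-domain factor Dbp is driven directly by the CLOCK and BMAL1 pair and swings with the time of day. It read 3.93, 3.40, 4.57, 4.27 and 3.79 at P6 and 8.87, 8.79 and 9.16 at P23, and rose by 4.95 (SE 0.53, limma adjusted p = 1.3e-07). It is dim at P6, and with 50 added its change is 3.03. The repressors Nr1d2 (2.64), Nr1d1 (1.36), Per1 (2.38) and Per2 (2.79, or 1.47 with 50 added) and Tef (1.17) rose. Cry1 (-0.63), Nfil3 (-0.49) and the casein kinases Csnk1d (-1.13) and Csnk1e (-1.29) fell. The sources used here give no time of day for the harvest, so age and hour cannot be told apart for these genes. Immediate early genes, which respond to handling within minutes, were divided, with Dusp1 (2.38), Klf6 (1.49) and Fos (0.78) higher and Egr1 (-1.03) and Jund (-0.90) lower.

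P14 did not always lie between both ages. Of the 1608 genes that fell from P6 to P23, the P14 mean lay between the means of both ages for 791 (49.2%) and above both for 730 (45.4%). Of the 1629 that rose, it lay between for 807 (49.5%) and below both for 783 (48.1%). These are positions of means, with no test. The steps share the P14 arrays, and each shares arrays with the net comparison. From P6 to P14, 5.27% of the genes were called higher and 7.16% lower (12.4% together), and from P14 to P23, 21.4% higher and 18.6% lower (40% together).

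Both steps were called in opposite directions at 615 genes. Of these, 265 were higher at P14 than at both other ages (3.21% of all genes), and in net terms 150 of them fell, 5 rose and 110 were not called. A further 350 were lower at P14 than at both (4.24%), and 131 of them rose, 21 fell and 198 were not called in net terms. In net terms 308 of the 615 were not called. The first count was 169 and the second 200 with P6 arrays 4 and 5 only, and 161 and 210 with the sex class as a covariate. Without the second or the third P14 array the first was 168 and 152.

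Genes with a peak at P14 included follicle and stress genes. Sprr2h, a small proline-rich protein, read 9.13, 9.21, 8.84, 9.03 and 9.07 on the P6 arrays, 12.52, 12.64 and 12.84 on those of P14 and 4.54, 6.75 and 6.23 on those of P23. Its step from P6 to P14 was 3.61 (limma adjusted p = 5.8e-07) and its step from P14 to P23 -6.83 (limma adjusted p = 2.1e-11), for a net fall of 3.22. Krt72 of the inner root sheath read 12.08, 12.07, 11.99, 12.06 and 12.26 on the P6 arrays, 13.95, 14.14 and 14.12 on those of P14 and 7.53, 7.64 and 7.35 on those of P23, and every P14 array lay above every P6 array. Dsc2 (-1.67 in net terms), a desmosomal cadherin, S100a8 (-0.75), a calgranulin of stressed keratinocytes and neutrophils, Krt16 (-1.26), Car6 (-2.58), a secreted carbonic anhydrase, Krtap5-4 (-4.37) and Acpp (-0.93), an acid phosphatase, made the rest of the 8 largest.

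Genes with a dip at P14 included dermal, fat and interfollicular genes. Krt1 read 14.32, 14.21, 14.28, 14.15 and 14.25 on the P6 arrays, 9.94, 9.80 and 9.92 on those of P14 and 12.07, 12.58 and 12.75 on those of P23. It changed by -4.36 (limma adjusted p = 5.1e-14) up to P14 and by 2.58 (limma adjusted p = 1.8e-10) after it, for a net fall of 1.77. Twist2, a transcription factor of dermal fibroblasts, read 10.53, 10.26, 10.52, 10.24 and 10.31 on the P6 arrays, 7.52, 9.17 and 7.57 on those of P14 and 10.38, 10.45 and 10.39 on those of P23. Its net change was 0.04 (limma adjusted p = 0.93), though both steps were called, and the second P14 array lay apart from the other P14 arrays. Serpina12, an adipokine that keratinocytes also make, was -2.46 (limma adjusted p = 1.6e-08) at the first step and 0.09 (limma adjusted p = 0.76) in net terms. Nnmt (0.36), Polr2i (0.41) and Sprr2g (0.36) were also not called in net terms. Rbp4, the retinol carrier, rose by 0.97 and Meg3, an imprinted noncoding RNA, fell by 0.91 in net terms. The P14 arrays of Meg3 spread from 7.02 to 8.97.

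Steady courses were rarer. Both steps were called upward at 64 genes (0.776%) and downward at 61 (0.739%). Beside Myh4, Myh1, Ccl8 and Krt77, the largest upward courses were those of smooth muscle myosin (Myh11, 2.41), the transcriptional repressor Bcl6 (2.59), H2-D4 (2.51) and Ccn2. Downward courses were led by Myh8, Krtap6-3 (-6.36), neuropeptide Y (Npy, -3.22), Mki67, Mtm1 (-2.06), a lipid phosphatase whose other probe set was called higher at 0.90, Birc5, Ckap2 (-1.93) and Cks2. From P6 to P14 Krtap6-3 changed by -1.63 (limma adjusted p = 0.00064), where the median of the keratin-associated proteins changed by 0.64.

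**Figure D4:**
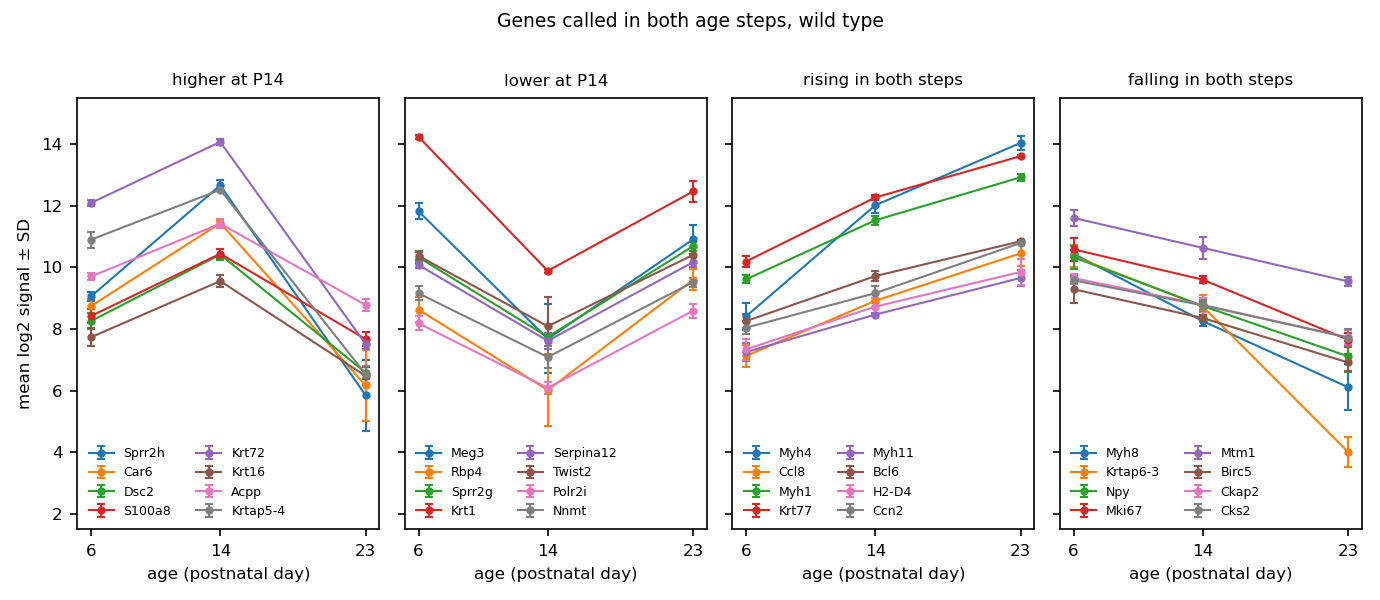
Mean log2 signal (y axis, with SD over 5, 3 and 3 wild-type arrays) at P6, P14 and P23 (x axis, days) of the 8 genes with the largest courses of each kind. Genes of the first panel peak at P14 and end below their P6 level, those of the second dip, and Twist2 and Serpina12 end near their P6 level.

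The same comparison in DN-CLIM skin rests on 8 other arrays. There 1714 of 8251 genes rose (20.8%) and 1588 fell (19.2%), 40% together. Of the 3237 genes called in wild type, 3197 (98.8%) had the same sign in DN-CLIM and 2617 were called there in that direction, which is 80.8% of the wild-type calls and 79.3% of the 3302 DN-CLIM calls. None was called in the opposite direction. In DN-CLIM skin Krt31 changed by -7.58, Cdc20 by -2.77, Pmel by -2.06, Myh4 by 6.24, Cd74 by 2.80 and Dbp by 4.52.

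A test of the difference between both age comparisons called 0 of 12422 probe sets in limma (0%), with 506 at an unadjusted p under 0.05 (4.07%) and 0.07 as the lowest adjusted p. That difference has a median SE of 0.24 over the genes called in wild type. It does not show that the genotypes age alike.

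**Figure D5:**
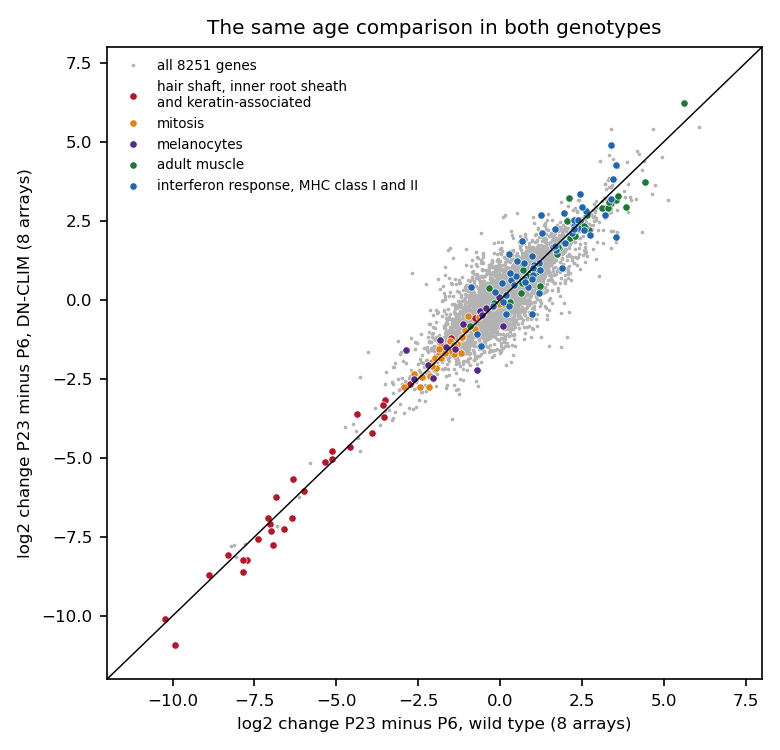
Log2 change P23 minus P6 of 8251 genes in wild-type skin (x axis, 8 arrays) and DN-CLIM skin (y axis, 8 other arrays), with the line of equal change. Hair genes lie at the lower left and muscle and immune genes at the upper right in both genotypes.

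Some of the rises and falls named here did not hold under every setting. Sex class differs between the P6 and P23 arrays, and with it as a covariate 34 of the 255 called genes named no longer passed limma's threshold: Aldh3a2, Aloxe3, Alpl, Aplnr, Car1, Ccn3, Cdkn1c, Cebpb, Chrnb1, Cidea, Cry1, Csrp3, Ctsc, Egr2, Fbn2, Gata2, Igtp, Itga3, Krt10, Lgals3, Lgr5, Mcpt4, Meg3, Ndn, Nfatc1, Nfil3, S100a8, Sfrp2, Sprr2b, Tgfb2, Tnni1, Tpsb2, Tspo2 and Tyrp1. A further 14 lost the call or turned under another setting: Acan, Apoe, Ascl2, Col11a1, Col4a2, Eif4ebp1, Fos, Gclm, Myf6, Rbp4, Rptn, S100a6, Srgn and Tnnt2. No P14 or P23 array had both Xist and Eif2s3y above log2 6, so that class goes with age. In the 34 losses sex, age, pooling of mice and fewer comparable P6 arrays cannot be told apart. The part of sex was not tested further.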

How the data were processed

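Total RNA of whole back skin was hybridised to single-colour oligonucleotide arrays, per the labels. The authors deposited intensity values, linear MAS5 signals per the submitters' processing notes, for 12488 probe sets on 22 arrays; the 2% trimmed mean of each was about 500.3. Here log2 was taken of the deposited intensities, 66 control probe sets were left out, and limma 3.58.1 (R 4.3.3) was fitted to all 6 groups with a variance trend and Benjamini-Hochberg adjustment over 12422 probe sets. Scripts were tested on simulated data. Of the probe sets, 10833 had 1 gene, 396 several and 1193 none. The 6211 brighter probe sets had a mean log2 signal of at least 7.67.

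The members and lists were chosen with earlier results of these data known. Genes were named by rule: the 15 largest rises and falls of the brighter genes without overlap, up to 4 called genes per list by p, 8 genes per P14 course, the cell type markers and Ldb1. Actc1, Actn2, Aldh1a3, Aldh3a2, Aloxe3, Alpl, Apln, Aplnr, Apoe, Ascl2, Car1, Casp14, Casq2, Ccn3, Ccnd1, Cdh15, Cdkn1c, Cebpb, Chrnb1, Col11a1, Col18a1, Col4a1, Col4a2, Cry1, Csnk1d, Csnk1e, Csrp3, Ctsb, Ctsc, Cxcl9, Eef1b2, Egr1, Egr2, Eif4ebp1, Fbn2, Fos, Foxn1, Frzb, Gas1, Gata2, Gata3, Gbp2, Gclc, Gclm, Id3, Igf1, Igtp, Irgm1, Itga3, Itga6, Itgb4, Ivl, Klf4, Lgals3, Lgr5, Mb, Mgst3, Mitf, Myf6, Myh2, Ndn, Nfatc1, Nfil3, Nr1d1, Oca2, Peg3, Per2, Phlda2, Psmb6, Psmb9, Ptprc, Rptn, S100a6, Sfrp2, Sfrp4, Shh, Sln, Sprr2b, Srgn, Tcf4, Tcf7l2, Tgfb2, Tnni1, Tnnt2, Tpm1, Tspo2 and Tubb3 were named after their values were seen. Alternatives were quantile normalization, the brighter probe sets, 50 added to each signal, only the arrays compared, array weights, no variance trend, the replicate block, subsets of the P6 arrays, the sex class, another probe set and each array left out.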

Additional observations from a re-analysis of the deposited data

Results flagged for a closer look

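Among the 5 wild-type P6 arrays, 1 array stood apart from the others at 16 of 272 genes named and at 3 of 40 list means, judged by its gap to the nearest array as a share of the group's whole range, with 0.71 as the limit. Chance gives such a gap in about 1 of 20 groups. Array 3 was high for Tapbp (0.878) and low for Gata2 (0.958), H2-Ea (0.796), Krtap5-4 (0.776) and Mgst3 (0.776). Array 5 was low for Eif4ebp1 (0.738), Mvd (0.733) and Sfrp4 (0.835) and high for Mmp9 (0.732). Array 4 was low for Slc2a4 (0.884), Lgr5 (0.741) and Aldh1a3 (0.712) and high for Ascl2 (0.772). Array 2 was low for Tcf7l2 (0.729) and Aplnr (0.721), and array 1 was high for Foxn1 (0.812). Of the list means, that of developmental muscle isoforms was high on array 3 (0.714), that of the IGF axis low on array 5 (0.803) and that of Schwann cells and nerve low on array 2 (0.744).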

How the results depend on the processing

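The counts of probe sets called higher and lower stayed within 1.5 times under the alternatives tried, except where a log2 change of at least 1 was asked for (1096 higher and 811 lower). Without 1 array they ranged from 1802 to 2161 and from 1731 to 2133. With the replicate number as a block, 2193 were higher and 2038 lower, the genotype difference was called at 0 probe sets, and 316 genes peaked and 384 dipped at P14. Same-numbered arrays correlated at 0.118, -0.047 and -0.149, so the numbers do not pair the arrays.

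The genotype difference was called at 2 probe sets after quantile normalization, 1 in the brighter probe sets, 2 with only the arrays compared, 5 with array weights, 1 with P6 arrays 1 to 3, 2 with P6 arrays 4 and 5, 1 with the sex class as covariate and 0 to 1 without 1 array. Peaks and dips at P14 were 169 and 200 with P6 arrays 4 and 5, 161 and 210 with the sex class, and 152 to 258 and 240 to 335 without 1 array. The cause was not tested.

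Of 255 called genes named, 207 passed in the same direction in each setting run for them, and 48 lost the call or turned in at least 1 setting, 34 of them with the sex class as covariate. Direction turned after quantile normalization for S100a6 (0.18), Col1a1 (0.87), Krt10 (0.09), Apoe (0.19) and Col3a1 (0.77). Among genes not called, it turned for Twist2 (-0.03) and Col3a1 (0.04) with P6 arrays 1 to 3, Gata3 (0.16) and Col1a2 (-0.03) with P6 arrays 4 and 5, Gata3 (0.17) and Serpina12 (-0.21) with the sex class, Serpina12 (-0.05) with the block, and without 1 array, where Gata3 ranged from -0.12 to 0.01, Col3a1 from -0.07 to 0.01 and Serpina12 from 0.00 to 0.14. Other probe sets of a gene went the other way for Aldh1a1 (-0.71), Mb (-1.13), Ctsc (1.56), Col1a2 (-0.42), H2-D4 (-0.73), Slc2a4 (-0.28), Gata2 (-0.22), Cdh15 (0.13), Ckmt2 (-0.50), Lox (-0.23), Lig1 (0.88), Lor (1.49), Krt17 (1.14), Itgae (-0.09), Scd1 (-1.08), Col1a1 (0.01), Krt10 (0.02), Cry1 (0.25), Ctsb (0.77, 0.22 and 0.27), Igf1 (1.73), Peg3 (0.47), Krt81 (0.12), Csnk1d (0.24), Col3a1 (1.18 and 0.32), Mtm1 (0.90), Mki67 (0.31), Mfap5 (-0.28), Aldh3a2 (0.59), Klf4 (-1.46) and Mmp9 (-0.18). The number of arrays limits the precision.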
